A study of Mus musculus with 4 samples.

Results

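The genes described here are 10 genes of prostaglandin synthesis, reception and breakdown, chosen by name, of 23475 genes in the deposited tables. They were followed in 4 mRNA libraries of astrocytes isolated from the cerebral cortex of mouse pups at postnatal day 5. The 2 libraries labelled KO are those of PD1cKO-Cx3 mice, in which PD-1, an inhibitory immune receptor encoded by Pdcd1, is conditionally deleted. The 2 libraries labelled WT are those of PD1fl/fl mice, which carry the floxed gene. The sources used here do not give the driver behind the name Cx3, the exons removed, the strain or whether animals were pooled. Of the 10 genes, 9 were listed in the tables and 7 passed the low-count filter and were tested.

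Prostaglandins are short-range lipid signals made from arachidonic acid. A phospholipase frees the fatty acid, a cyclooxygenase turns it into the unstable intermediate PGH2, and a terminal synthase then sets which prostaglandin is made. In the brain, prostaglandin D2 made by microglia and by leptomeningeal cells acts on neighbouring glia and on sleep, and prostaglandin E2 acts in fever and inflammation. Signals end when the prostaglandin is taken up and oxidised.

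Counts per library ran from 14224519 to 16961160. KO replicate 2 carried 20 counts of Pdcd1, KO replicate 1 was not listed for it (at most 4 counts) and both WT libraries had 0. The few reads of the deleted gene thus came from a library labelled KO and none from WT. With the driver and the exons removed not given, these reads cannot show whether the labels hold. The groups are called by their labels throughout. KO replicate 2 also stood apart in sex-linked transcripts, with 2472 counts of Ddx3y, a gene of the Y chromosome, and none listed for Xist, whereas each other library had at least 6732 counts of Xist and none listed for Ddx3y. Summed over 10 astrocyte markers, from the glutamate transporter gene Slc1a3 to Aqp4, levels were 7080 and 6346 CPM (counts per 1000000, with library sizes scaled by edgeR) in KO-labelled libraries and 7108 and 6741 CPM in WT. Summed over 10 microglia markers, from P2ry12 to C1qa, they were 3994 and 3399 CPM in KO-labelled libraries against 751 and 1069 CPM in WT. All 10 microglia markers lay higher in both libraries labelled KO, with a median log2 fold change of 1.89. In bulk RNA more cells of a type and more RNA per cell cannot be told apart. The part of the microglia markers in the results below was not tested.

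The genes of cyclooxygenase 1 and of the haematopoietic prostaglandin D synthase had the highest fold changes of the 7 tested members, though neither passed the test. Ptgs1 was 6.42-fold and Hpgds 4.47-fold higher in KO-labelled libraries, and Hpgd, which breaks prostaglandins down, was 2.10-fold higher. The synthases of prostaglandin E2, Ptges and Ptges3, overlapped between the groups. None of the 7 tested members passed over all genes (edgeR quasi-likelihood test with Benjamini-Hochberg adjustment, adjusted p under 0.05), where 3 of 17696 tested genes, or 0.017%, were called higher and 0, or 0%, were called lower. At an unadjusted p under 0.05, 3 members were higher and 0 lower, where 5.88% of all tested genes were higher and 2.41% lower. In 4 tested members each KO-labelled library exceeded each WT library, where 21.2% of all tested genes did. One of these 4, Ptgds, passed the filter only through KO-labelled libraries, so it had to lie higher there. Without genes that passed in this way, each KO-labelled library exceeded each WT library in 3 members, where 19.1% of all genes left did. The plot of the members by library shows these values.

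**Figure D1:**
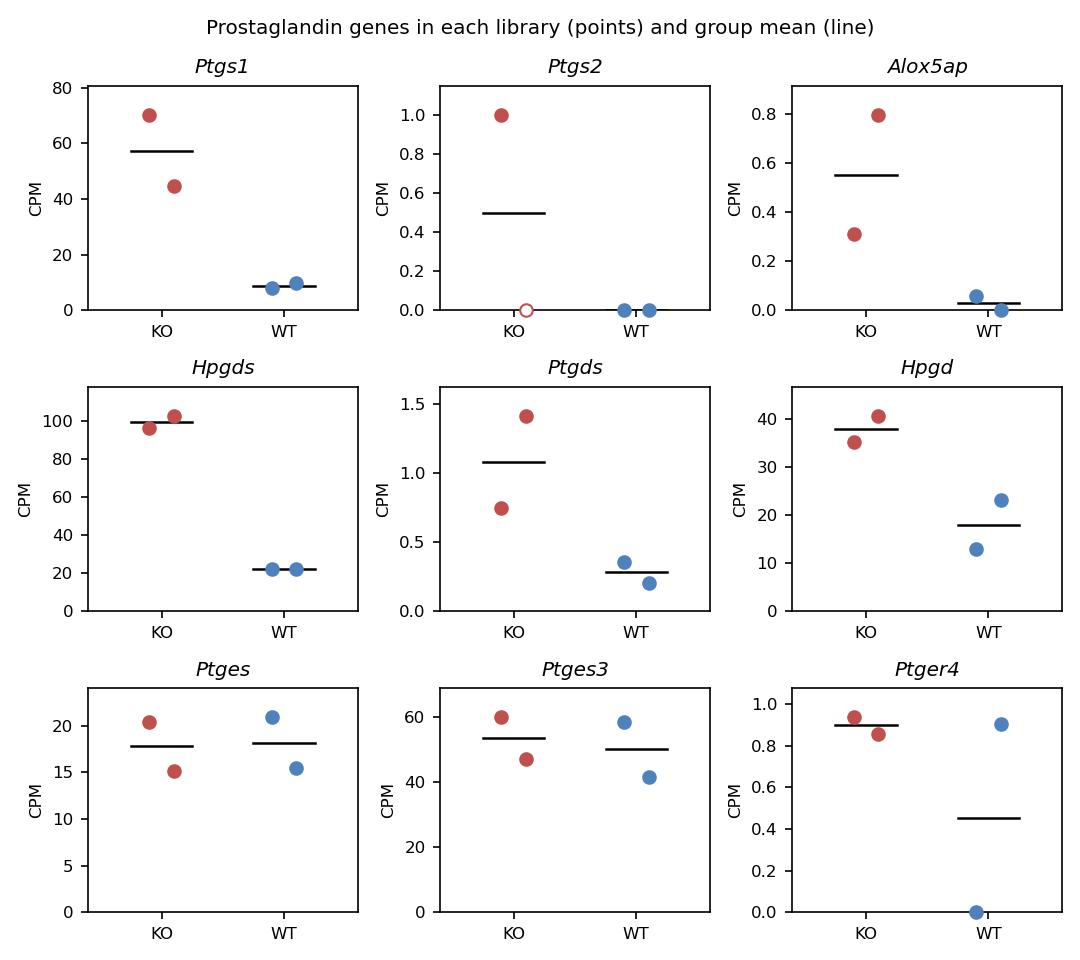
Levels of the 9 listed members in CPM (y axis, linear and starting at 0, scaled per gene) in KO-labelled libraries (red) and WT (blue), with the group mean as a line. Each point is 1 library, and the hollow point marks a library in which Ptgs2 was not listed. Ptgs1, Hpgds and Hpgd are higher in both libraries labelled KO, while Ptges and Ptges3 overlap.

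Ptgs1 encodes cyclooxygenase 1, the constitutive form of the enzyme that makes PGH2. It lies on chromosome 2, 36230426 to 36252272, plus strand (ENSMUSG00000047250, GRCm38). It had 1124 and 729 counts in KO-labelled libraries against 138 and 140 in WT, or 70.1 and 44.6 CPM against 8.16 and 9.72 CPM. The groups did not overlap, and KO replicate 1 was the highest. The log2 fold change was 2.68 ± 0.32 (SE), with an edgeR unadjusted p of 0.000186 and an adjusted p of 0.10, so it missed the threshold. DESeq2 called Ptgs1 higher (adjusted p = 2.63e-10), and it called 1.78% of all tested genes higher. edgeR also called it over genes with a mean of at least 5 CPM (adjusted p = 0.029) and with no filter (adjusted p = 0.034). The log2 fold change ran from 2.32 to 2.97 when 1 library was left out, and the adjusted p over all alternatives from 2.63e-10 to 0.49.

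Ptgs2 encodes cyclooxygenase 2, the inducible form, and lies on chromosome 1, 150100031 to 150108227, plus strand (ENSMUSG00000032487, GRCm38). It had 16 counts in KO replicate 1 and was not listed in KO replicate 2, which leaves room for at most 4 counts, and it had 0 counts in both WT libraries. The level in KO replicate 1 was 0.998 CPM (exact 95% binomial interval 0.571 to 1.62). The most that 0 counts leave room for is 0.177 CPM in the first WT library and 0.208 CPM in the second, and such intervals and limits cover counting error only. The listed signal thus rested on 1 library, and Ptgs2 did not pass the filter. Of all cyclooxygenase counts, Ptgs1 made up 98.6% (exact 95% interval 97.7 to 99.2) in KO replicate 1. It made up 100% in either WT library, with a lower bound of 97.4%, and in KO replicate 2 at least 99.45%, the share if Ptgs2 had the 4 counts that its absence from the tables leaves room for. The cyclooxygenase message of these preparations was Ptgs1 in both groups.

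Hpgds encodes the haematopoietic prostaglandin D synthase, a glutathione-dependent enzyme that in the brain is known from microglia. It lies on chromosome 6, 65117293 to 65144908, minus strand (ENSMUSG00000029919, GRCm38). It had 1544 and 1677 counts in KO-labelled libraries against 378 and 319 in WT, or 96.3 and 103 CPM against 22.4 and 22.1 CPM. Replicates lay close together in each group, with means of 99.5 ± 4.5 CPM for KO-labelled and 22.3 ± 0.16 CPM for WT libraries (SD, n = 2 each). The log2 fold change was 2.16 ± 0.18 (SE), with an edgeR unadjusted p of 2.81e-05 and an adjusted p of 0.073, which missed the threshold. It passed with DESeq2 (adjusted p = 7.37e-17), limma-voom (0.020), no filter (0.018) and a mean of at least 5 CPM (0.018). It also passed without WT replicate 2 (edgeR, adjusted p = 0.040), a fit in which WT is 1 library assumed to vary as the KO-labelled ones do. It did not pass without KO replicate 1 (0.27) or without KO replicate 2 (0.29), while the log2 fold change ran only from 2.11 to 2.21 over all 13 alternatives. A stretch of at most 167 bases of the Hpgds transcript is at least 90% identical to parts of 163 other genes, so a part of its reads may have been assigned with less certainty.

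Ptgds encodes the lipocalin-type prostaglandin D synthase, which catalyses the same reaction and is known in the brain from leptomeninges, choroid plexus and oligodendrocytes. It lies on chromosome 2, 25466709 to 25470046, minus strand (ENSMUSG00000015090, GRCm38). Its counts were 12 and 23 in KO-labelled libraries against 6 and 3 in WT, or 0.749 and 1.41 CPM against 0.355 and 0.208 CPM. These are few reads, and the exact 95% intervals of KO replicate 1 (0.387 to 1.31 CPM) and WT replicate 1 (0.130 to 0.773 CPM) overlapped. These gave a log2 fold change of 1.90 ± 1.33 (SE, edgeR adjusted p = 0.82). Markers of leptomeninges and choroid plexus were read beside it. The 8 leptomeningeal fibroblast markers, Col1a1 and Dcn among them, summed to 214 and 47.9 CPM in KO-labelled libraries against 36.2 and 39.5 CPM in WT. The 8 choroid plexus markers summed to 16.1 and 3.98 CPM in KO-labelled libraries and 7.34 and 1.39 CPM in WT, with Ttr not listed in any library. Their part in the Ptgds values was not tested. Of all prostaglandin D synthase counts, Hpgds made up 99.2% and 98.6% in KO-labelled libraries and 98.4% and 99.1% in WT, with no split between the groups. Per kb of merged exons its share was 97.1% and 94.9% in KO-labelled libraries and 94.2% and 96.5% in WT.

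The promoters of Hpgds and Ptgs1 are shown because these are the members with the largest changes and both hold the same 8-letter motif. The sequences are RefSeq's on GRCm38.p6, from 250 bases before to 50 bases after RefSeq's start of each gene, 5′ to 3′ on the gene's strand. Capitals mark GAGGAAGT, a strong form of the site of PU.1, the transcription factor on which microglia and macrophages depend.

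Hpgds, chr6:65144681-65144980, minus strand: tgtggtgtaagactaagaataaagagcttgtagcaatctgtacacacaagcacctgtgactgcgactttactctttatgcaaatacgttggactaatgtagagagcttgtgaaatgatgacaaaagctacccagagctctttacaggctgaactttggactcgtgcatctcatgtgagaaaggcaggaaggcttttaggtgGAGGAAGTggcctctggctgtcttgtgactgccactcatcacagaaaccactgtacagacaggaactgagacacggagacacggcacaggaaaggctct
Ptgs1, chr2:36230176-36230475, plus strand: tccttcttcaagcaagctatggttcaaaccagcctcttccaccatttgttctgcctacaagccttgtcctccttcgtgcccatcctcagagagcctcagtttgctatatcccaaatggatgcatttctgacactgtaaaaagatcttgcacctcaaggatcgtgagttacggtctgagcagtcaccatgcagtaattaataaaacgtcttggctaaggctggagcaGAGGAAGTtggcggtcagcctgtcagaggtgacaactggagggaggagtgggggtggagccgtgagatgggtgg

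RefSeq's start of Hpgds lies at 65144730, which is 178 bases inside the gene as GENCODE draws it, while RefSeq and GENCODE give Ptgs1 and Ptgs2 the same start. RefSeq's start of Ptges lies 26566 bases and that of Ptgds 297 bases inside the gene as GENCODE draws it. Matches in these promoters hold for RefSeq's starts only. Counted from RefSeq's starts, the motif begins 49 bases before Hpgds and 24 bases before Ptgs1, on the sense strand in both. Searched on both strands, it stood in 2 of the 9 member promoters that RefSeq's table holds, these 2, and in 3.20% of all 32851 promoters. The shorter core GAGGAA, which lies within it, stood in 6 of the 9 (Ptgs1, Hpgds, Ptgs2, Ptges, Ptgdr and Hpgd) and in 28.3% of all promoters. The Ptgs2 promoter is shown as the contrast, since that gene was hardly read here. Its capitals mark 2 overlapping motifs just after the gene start, TGACGT (on the opposite strand), which is the short form of the cyclic AMP response element, and the E-box CACGTG.

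Ptgs2, chr1:150099781-150100080, plus strand: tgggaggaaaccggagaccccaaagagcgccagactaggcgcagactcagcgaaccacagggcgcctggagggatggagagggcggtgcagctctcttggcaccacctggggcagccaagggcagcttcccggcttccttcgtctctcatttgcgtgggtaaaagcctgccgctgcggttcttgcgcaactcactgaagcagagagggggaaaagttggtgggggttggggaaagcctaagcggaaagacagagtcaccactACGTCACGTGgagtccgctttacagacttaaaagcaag

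TGACGT stood in 1 member promoter, that of Ptgs2, and in 7.51% of all promoters, and CACGTG likewise in that of Ptgs2 and in 7.15% of all. The TATA box TATAAA was found in Hpgd (13.6% of all promoters), the AP-1 site TGACTCA in Ptgds (5.20%) and CCAAT in Ptger4 (37.4%). The full response element TGACGTCA (1.79%) and an NF-kB consensus (0.155%) were found in 0 member promoters. These are matches of letters in a 300-base window, described and not tested.

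Ptges encodes the inducible membrane-bound synthase of prostaglandin E2 and lies on chromosome 2, 30889471 to 30929863, minus strand (ENSMUSG00000050737, GRCm38). It was read at 20.3 and 15.2 CPM in KO-labelled libraries and at 20.9 and 15.5 CPM in WT. The groups overlapped almost fully, replicate 1 being the higher in each. The log2 fold change was -0.03 ± 0.32 (SE, edgeR adjusted p = 0.99). Ptges3 encodes the cytosolic synthase of prostaglandin E2, which is also a co-chaperone of the heat shock protein HSP90, and lies on chromosome 10, 128058954 to 128077272, plus strand (ENSMUSG00000071072, GRCm38). It was read at 60.0 and 47.1 CPM in KO-labelled libraries and at 58.6 and 41.8 CPM in WT, and its log2 fold change was 0.09 ± 0.25 (SE), edgeR adjusted p = 0.97. Here too the groups overlapped. The pseudogenes Ptges3-ps and Gm11893 match 480 and 495 bases of its 2000-base transcript at 100% and 94.3% identity and were not listed, so the counting could move reads between gene and copies, and its value is uncertain.

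The levels of the members relative to each other can be compared only per length. Per kb of merged exons, the order in KO-labelled libraries was Ptges3 (27.1 and 21.2 CPM per kb), Hpgd (21.02 and 24.2), Hpgds (15.0 and 16.0), Ptgs1 (18.1 and 11.5) and Ptges (5.17 and 3.86). Ptges3 and Hpgd did not differ beyond their spread there, nor did Hpgds and Ptgs1. In WT the order was Ptges3 (26.4 and 18.8 CPM per kb), Hpgd (7.70 and 13.8), Ptges (5.31 and 3.94), Hpgds (3.48 and 3.45) and Ptgs1 (2.10 and 2.50), and none of these neighbours overlapped. Hpgds per kb was thus 2.898 and 4.14 times Ptges in KO-labelled libraries and 0.655 and 0.875 times Ptges in WT. The order depends on the length used in both groups. Per kb of the longest coding transcript Hpgds stood at 6.43 and 6.37 in WT, above Ptges at 5.73 and 4.24, and in KO-labelled libraries at 27.7 and 29.5, against 5.58 and 4.16 for Ptges. On that scale Hpgds also stood above Hpgd (21.02 and 24.2) in KO-labelled libraries, where it stood below it per kb of merged exons, and it overlapped Ptges3 (30.0 and 23.5). With either length Hpgds and Ptgs1 stood above Ptges in both libraries labelled KO, and Ptgs1 below it in both WT libraries, at 2.85 and 3.39 CPM per kb of transcript. The other 4 listed members were below 1 CPM per kb of merged exons in every library.

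**Figure D2:**
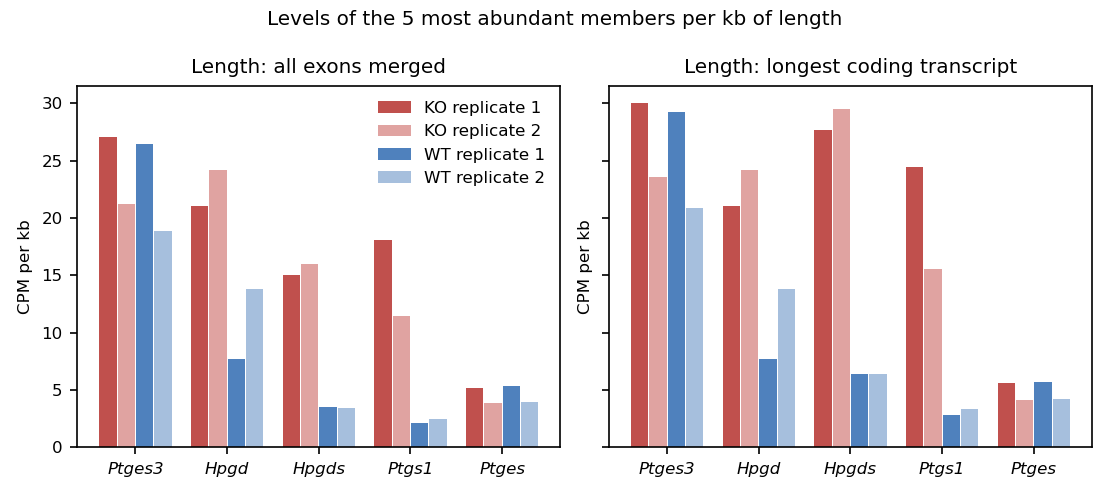
Levels of the 5 most abundant members in CPM per kb (y axis, starting at 0) in each library, with KO replicates in red and WT replicates in blue. The left panel divides by the length of all merged exons and the right panel by the longest coding transcript. Hpgds and Ptgs1 stand above Ptges in both libraries labelled KO, and Ptgs1 stands below Ptges in both WT libraries.

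Ptger4, which encodes the prostaglandin E2 receptor EP4, lies on chromosome 15, 5206661 to 5244187, minus strand (ENSMUSG00000039942, GRCm38). It had 15 and 14 counts in KO-labelled libraries against 0 and 13 in WT. The level of WT replicate 2 (0.902 CPM) lay between those of KO-labelled libraries (0.936 and 0.857 CPM), and only WT replicate 1 lacked reads. Over all 4 libraries the log2 fold change was 0.99 ± 1.89 (SE, edgeR adjusted p = 0.96) and came to -0.0076 without WT replicate 1 and 6.89 without WT replicate 2. Its exons share 82 bases with those of Ttc33 on the opposite strand, and the sources used here do not say if counting used the strand. Ptgdr, which encodes the prostaglandin D2 receptor DP1 (chromosome 14, 44851235 to 44859375, minus strand, ENSMUSG00000071489, GRCm38), was not listed in any table, which leaves room for at most 4 counts in a library. A difference in this receptor was therefore not detectable at this depth.

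Hpgd encodes 15-hydroxyprostaglandin dehydrogenase, which begins the inactivation of prostaglandins, and lies on chromosome 8, 56294585 to 56321043, plus strand (ENSMUSG00000031613, GRCm38). It had 567 and 664 counts in KO-labelled libraries against 219 and 335 in WT, or 35.4 and 40.7 CPM against 12.96 and 23.3 CPM. The groups did not overlap, but the WT libraries differed from each other. The log2 fold change was 1.07 ± 0.34 (SE, edgeR unadjusted p = 0.021, adjusted p = 0.47), and leaving out the first WT library gave 0.71, leaving out the second 1.55. Alox5ap encodes the protein that hands arachidonic acid to 5-lipoxygenase, at the head of the leukotriene branch, and lies on chromosome 5, 149264767 to 149288153, plus strand (ENSMUSG00000060063, GRCm38). It had 5 and 13 counts in KO-labelled libraries against 1 and 0 in WT and did not pass the filter. From the summed counts the ratio was 17.4 (95% interval 2.75 to 726, exact and for counting error only).

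Set beside the sum of the 10 microglia markers, the members with the largest changes fell into different patterns. The markers differed in their own log2 fold changes, from 1.37 to 2.56, so these patterns depend on the markers summed. Other choices of markers as the scale were not tried. Hpgds stood at 24.1 and 30.2 CPM per 1000 CPM of summed microglia markers in KO-labelled libraries and at 29.8 and 20.7 in WT, so the groups overlapped on this scale. Ptgs1 stood at 17.6 and 13.1 in KO-labelled libraries against 10.9 and 9.09 in WT, which did not overlap. Hpgd stood at 8.86 and 11.96 in KO-labelled libraries against 17.2 and 21.8 in WT, so it lay lower on this scale while its CPM lay higher. The marker sum was itself 4.06-fold higher in KO-labelled libraries, so genes that changed less tend to lie lower on it. Ptges, Ptges3 and the phospholipase gene Pla2g4a lay lower too, with KO over WT ratios of 0.23, 0.25 and 0.67, beside 0.53 for Hpgd. Border-associated macrophage markers, such as Mrc1 and Lyve1, summed to 176 and 72.6 CPM in KO-labelled libraries against 19.5 and 26.1 CPM in WT. Of 8 mast cell markers, another cell type known for Hpgds, 5 were not listed in any library, Cpa3 and Fcer1a among them, and the summed level was 43.4 and 49.5 CPM in KO-labelled libraries and 44.5 and 58.2 CPM in WT, nearly all of it from Kit and Hdc. Endothelial markers, 10 in all, summed to 981 and 671 CPM in KO-labelled libraries against 561 and 457 CPM in WT. Of these, Slco1c1 alone stood at 430 and 392 CPM in KO-labelled libraries and 392 and 394 CPM in WT, and overlapped. The median log2 fold change of the 10 was 1.92, and 9 lay higher in both libraries labelled KO, where 21.2% of all tested genes did. Levels per endothelial marker sum were not computed, and the part of these cells was not tested.

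**Figure D3:**
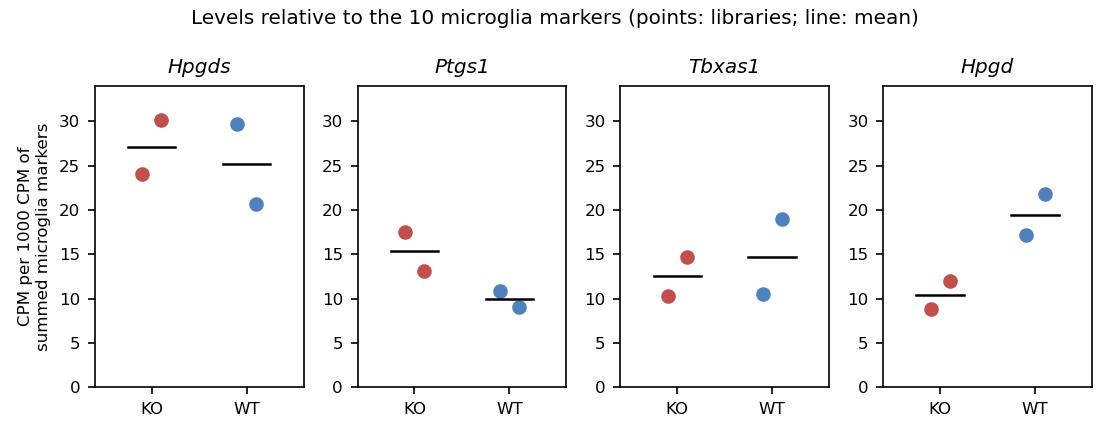
Levels of Hpgds, Ptgs1, Tbxas1 and Hpgd in CPM per 1000 CPM of 10 summed microglia markers (y axis, starting at 0) in KO-labelled libraries (red) and WT (blue), with group means as lines. Hpgds and Tbxas1 overlap between the groups, Ptgs1 lies higher and Hpgd lower in KO-labelled libraries.

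Patterns were compared among 11348 tested genes with a mean of at least 5 CPM, leaving out predicted loci (Gm, Rik and clone names). The genes most like a member over the 4 libraries were found by the distance of log2(CPM + 0.5), centred per gene. For Hpgds these were Ehd4 (distance 0.078), Cd37 (0.21) and P2ry13 (0.23), with log2 fold changes of 2.22, 2.00 and 2.24. For Ptgs1 they were the adenosine receptor gene Adora3 (0.19), Ighm (0.28) and P2ry12 (0.28), with log2 fold changes of 2.94, 2.92 and 2.56. Ptgds and Alox5ap shared the same 3 nearest genes, Vav3, Dusp7 and Dscam, at distances between 0.052 and 0.15. Their log2 fold changes were 1.12, 0.97 and 0.96, below the 1.90 of Ptgds. The 0.5 CPM added before the log narrows differences in members with so few reads, so their nearest genes change less than they do. For Ptgs2 they were Vtn, Pltp and Arhgap4, all of which stood highest in KO replicate 1. With 4 libraries and few reads in the last 3 members, these are descriptions of pattern only.

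Around the members, a list of 48 further genes of the pathway was read, of which 42 were listed and 33 tested. None passed over all genes, and the median log2 fold change was 0.21, against -0.00029 over all genes tested. Each KO-labelled library exceeded each WT library in 11 of them and lay below each in 4, where 21.2% and 18.4% of all tested genes did. Unadjusted p was under 0.05 in 7 higher and 1 lower, where 5.88% and 2.41% of all tested genes were. Of these genes 3, Ptger1, Ltc4s and Cysltr1, passed the filter only through KO-labelled libraries. Without such genes each KO-labelled library exceeded each WT library in 8, where 19.1% of all genes left did. The edgeR unadjusted p was then under 0.05 in 4 higher genes, where 4.6% of all genes left were higher.

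At the head of the pathway, Pla2g4a, the cytosolic phospholipase A2 that frees arachidonic acid, was read at 9.17 and 8.57 CPM in KO-labelled libraries against 2.25 and 4.51 CPM in WT (log2 fold change 1.39 ± 0.55 SE, edgeR adjusted p = 0.58). Its relative Pla2g4e went the other way, at 1.06 and 0.796 CPM in KO-labelled libraries against 3.90 and 6.87 CPM in WT (-2.53 ± 0.75 SE, adjusted p = 0.46). The groups did not overlap in either gene, and neither passed. Pla2g15, the lysosomal phospholipase A2, and Mgll, the lipase that supplies much of the brain's arachidonic acid, were the most abundant, with log2 fold changes of 0.63 and 0.36.

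Among the other prostanoid synthases, Tbxas1, the thromboxane synthase, which myeloid cells are known to express, was read at 41.1 and 50.1 CPM in KO-labelled libraries against 7.93 and 20.3 CPM in WT. The groups did not overlap, with a log2 fold change of 1.70 ± 0.46 (SE, edgeR adjusted p = 0.44), and DESeq2 called it higher (adjusted p = 0.022). Leaving out 1 library moved it between 1.17 and 2.53. Per 1000 CPM of microglia markers Tbxas1 overlapped, at 10.3 and 14.8 in KO-labelled libraries and 10.6 and 18.97 in WT. Ptgis, the prostacyclin synthase, was read at 10.3 and 3.0 CPM in KO-labelled libraries against 1.01 and 0 CPM in WT (3.68 ± 1.57 SE, adjusted p = 0.63). Leaving out 1 library moved the log2 fold change of Ptgis between 2.55 and 9.70. Cbr1, a carbonyl reductase, had a log2 fold change of -0.02.

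Of the other receptors, Tbxa2r, the thromboxane receptor, was read at 8.11 and 3.67 CPM in KO-labelled libraries against 1.24 and 2.08 CPM in WT (log2 fold change 1.82 ± 0.74 SE, edgeR adjusted p = 0.60, and 1.14 to 2.28 when 1 library was left out). Ptger1, the receptor EP1, had 13 and 26 counts in KO-labelled libraries against 1 and 0 in WT, a ratio of 37.7 (95% interval 6.38 to 1528, exact and for counting error only). Ptgfrn, a regulator of the prostaglandin F2 receptor, had a log2 fold change of -0.47 and did not overlap between the groups. Of the genes of transport and breakdown the most abundant, Zadh2 and Cbr4, had log2 fold changes of 0.09 and 0.21, and the groups overlapped in both.

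In the leukotriene branch, Ltc4s, the leukotriene C4 synthase, was read at 1.68 and 2.57 CPM in KO-labelled libraries against 0.177 and 0.278 CPM in WT, from 69 summed counts against 7 (log2 fold change 3.19 ± 1.18 SE, edgeR adjusted p = 0.55). Cysltr1, a receptor for cysteinyl leukotrienes, had 25 and 70 counts in KO-labelled libraries against 0 in both WT libraries. Its mean of 2.92 CPM, from 1.56 and 4.29 CPM, was 15.2-fold the mean WT limit of 0.193 CPM. That limit is the 3 counts per library that a count of 0 allows, and the ratio leaves out the spread of KO-labelled libraries. Cysltr1 passed with DESeq2 (adjusted p = 0.016) and not with edgeR (0.35). Both Ltc4s and Cysltr1 passed the filter only through KO-labelled libraries, so they had to lie higher there. Lta4h, the leukotriene A4 hydrolase, was the most abundant, at 132 and 116 CPM in KO-labelled libraries and 109 and 121 CPM in WT, and overlapped. Aloxe3, an epidermal-type lipoxygenase, had a log2 fold change of -0.89 and overlapped too.

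**Figure D4:**
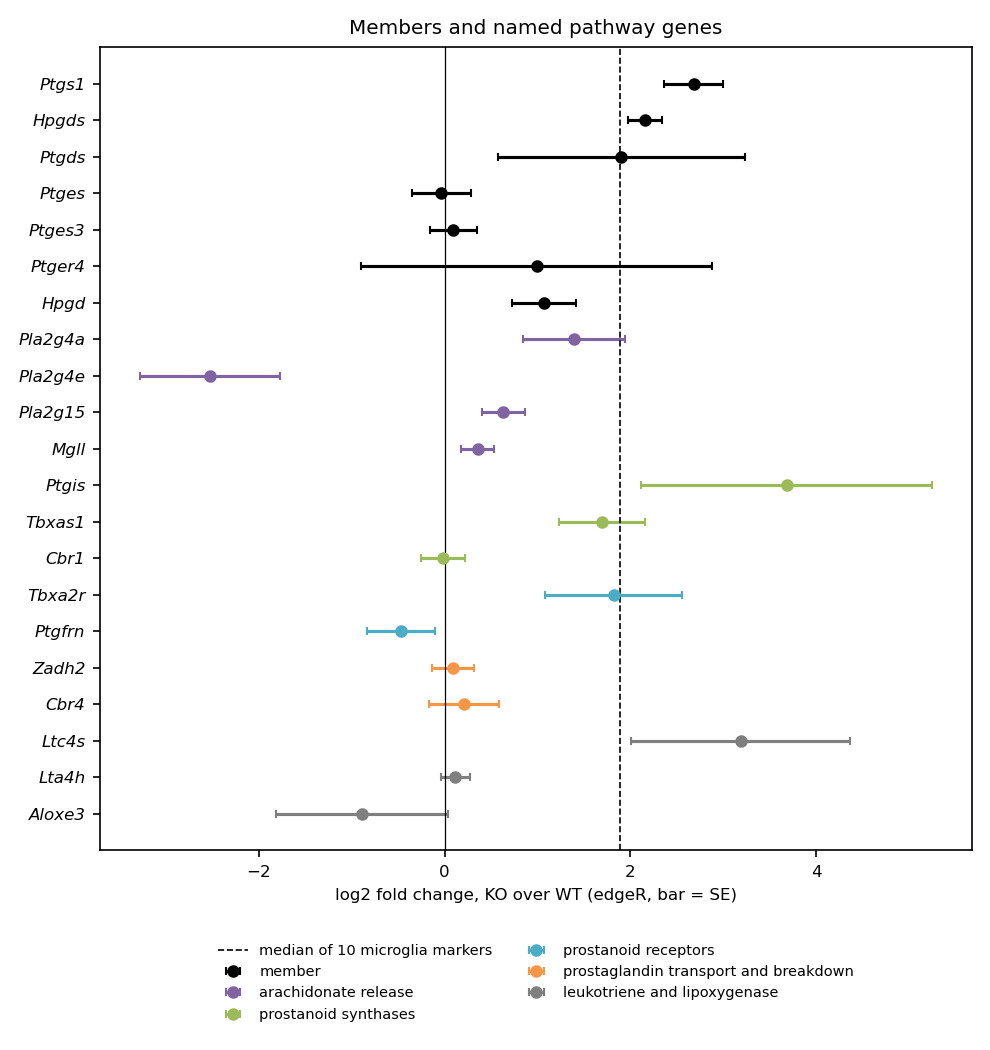
Log2 fold change of KO over WT (x axis) with its standard error for the 7 tested members (black) and for 14 named genes of the pathway, coloured by role. The dashed line is the median of 10 microglia markers (1.89), which run from 1.37 to 2.56, and Ptgs1 lies at 2.68, Hpgds at 2.16 and Ptges and Ptges3 near 0. Cysltr1 and Ptger1, with at most 1 count in WT, are left out.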

How the data were processed

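RNA was extracted with Trizol, per the labels' protocols. HTSeq 0.6.0, TopHat2 2.0.12 and Bowtie2 2.2.3 appear in the submitters' processing notes without roles. Although the notes name mm9, gene positions equal those of GENCODE M21 (GRCm38) for 90.6% of genes. The authors deposited 4 tables of 1 KO against 1 WT library with whole-number counts per gene, values scaled to a common total (CPM), fold changes and their log2 values, and p-values of an unnamed test. Genes were listed where both libraries had a count or 1 had at least 5, so an unlisted count, set to 0, is at most 4.

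The joined counts of 23475 genes were fitted with edgeR 4.0.16 (TMM, filterByExpr with a minimum count of 10, quasi-likelihood test, Benjamini-Hochberg adjustment over 17696 genes, threshold 0.05; R 4.3.3), without a replicate block. Scripts were checked on simulated data, where DESeq2 called 50 unchanged genes, edgeR 3 and limma-voom 4. Of 100 simulated 2-fold and 100 simulated 4-fold changes, edgeR found 15 and 63, limma-voom 18 and 57, and DESeq2 32 and 74. With edgeR most simulated 2-fold changes were thus missed. The common dispersion was 0.20 with 2 residual degrees of freedom. DESeq2 1.42.0 and limma 3.58.1 (voom) were alternatives. The labels do not say that libraries are separate animals, so p-values reflect only how these libraries vary. The KO-labelled libraries differed in Ddx3y and Xist, so they are not technical repeats of the same material. For WT the spread may be technical. The fit had no term for sex, and the part of sex in the KO-labelled values was not tested. Copies were searched with blastn 2.17.0. Motifs were searched in RefSeq promoters. All 10 members are named. Pathway genes are named by role: those past the threshold, those whose groups do not overlap and whose log2 fold change is 1 or more in size, and the 2 most abundant. Members and lists, motifs included, were chosen with earlier results of these data known. The summed level of mature oligodendrocyte markers is not reported here.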

Additional observations from a re-analysis of the deposited data

How the results depend on the processing

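With 2 libraries a group, edgeR called 0 of the 7 tested members and 0 of the 33 tested pathway genes (unadjusted p under 0.05 in 3 and 8), beside 3 genes higher and 0 lower in all. DESeq2 called 315 higher and 63 lower, among them 2 members (Hpgds and Ptgs1) and 2 pathway genes (Tbxas1 and Cysltr1). limma-voom called 25 higher and 3 lower, with 1 member, Hpgds. With no filter on low counts 52 were higher and 4 lower, and with a mean of at least 5 CPM 63 and 5, both with 2 members. At an adjusted p of 0.10, 14 were higher and 1 lower, with 1 member. Leaving out 1 library gave 0 to 41 higher genes, 0 to 1 lower and 0 to 1 member, Hpgds without WT replicate 2. The count of 0 came without KO replicate 2, where edgeR's unadjusted p was under 0.05 for 613 higher and 408 lower genes. The replicate block gave 4 higher and 0 lower genes and 0 members, and called no member or pathway gene that the fit without it did not. The labels give no pairing of the libraries. The within-group differences of same-numbered libraries correlated at 0.041, which cannot settle whether they were paired. RLE scaling, library totals and unlisted counts at their upper limit each gave 3 higher and 0 lower. Log2 fold changes changed sign without 1 library, where 1 group is a lone library assumed to vary like the other group, in Ptges (-0.26 to 0.20), Ptges3 (-0.13 to 0.36), Ptger4 (-0.0076 to 6.89), Cbr1 (-0.15 to 0.14), Zadh2 (-0.13 to 0.29), Cbr4 (-0.14 to 0.68) and Aloxe3 (-1.66 to 0.88). The cause was not tested. Members under about 1 CPM (Ptgs2, Ptgds, Ptger4, Alox5ap) are limited by depth.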

Other observations

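Ptgs2os, a noncoding RNA gene named after its place opposite Ptgs2, was chosen after its values were seen. It had 0 counts in both libraries labelled KO and 36 counts in WT replicate 1, and it was not listed for WT replicate 2, which leaves room for at most 4 counts.

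The authors' deposited tables carry their own label of significance, from 1 library against 1. Hpgds and Ptgs1 carried it in 4 of 4 tables, Ptgds in 3, Hpgd, Ptger4 and Alox5ap in 2 of 4, Ptgs2 in 2 of the 2 that list it, and Ptges and Ptges3 in 0. In the same deposited tables the adjusted p lay below the unadjusted p for between 66.9% and 78.9% of the genes, and the largest adjusted p was 0.331, which a Benjamini-Hochberg adjustment over the listed genes does not give. Over all genes the authors' deposited label was yes for 6012 to 6558 genes per table.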
